A study of Mus musculus with 6 samples.

Results

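The mitotic kinases described here are 10 genes, Plk1, Plk4, Aurka, Aurkb, Nek2, Melk, Ttk, Mastl, Pbk and Wee1. They were chosen by name and were read by every non-control probe whose gene name in the array files was one of the 10. All 10 were found, with 17 of the 40996 probes tested, which carry 27287 distinct gene names. Plk4 had 3 probes, Melk had 2 and Mastl had 5, while the other 7 genes had 1 probe each. RNA came from CD8+ T cells sorted from the liver of female C57BL/6 mice aged 13 to 14 weeks. Every mouse carried dnTGFβRII, a dominant negative form of TGF-beta receptor II that blunts TGF-beta signalling in the cells that express it. The labels do not name the promoter that drives it. The control group, TG, carried dnTGFβRII alone, and the other group, TGC3, was dnTGFβRII CXCR3-/-, so that it also lacked the chemokine receptor CXCR3. The study's stated subject is the part CXCR3 plays in the activation and proliferation of these cells.

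Mitotic kinases are enzymes that drive a cell into and through division by placing phosphate groups on other proteins. Polo-like and Aurora kinases build the spindle and time its steps, Ttk and Bub kinases hold division back until chromosomes are attached, and Wee1 keeps Cdk1, the master kinase of mitosis, inactive until a cell is ready. Resting T cells have little need of them, and an activated T cell makes them as it divides. Their transcripts are made mainly in the G2 and M phases, so that in a mixed population the level of each reflects how many cells are in those phases as well as how much each cell makes. In these bulk samples, fewer cells of a type and less RNA per cell cannot be told apart.

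Each group had 3 samples, each read on 1 one-colour Agilent array, named here TGC3 1 to TGC3 3 and TG 1 to TG 3. The labels do not say whether they are separate mice. The p-values therefore measure only the spread between these samples, which may be technical. All 3 TGC3 arrays were on 1 slide and all 3 TG arrays on another, scanned at another time. Slide and genotype cannot be told apart in any result below. Between 58.9% and 63.9% of probes were well above background on an array, and precision is limited by how few arrays there are. The Cxcr3 probe, the check of the genotype, read 23.8, 33.0 and 27.0 intensity units on the TGC3 arrays and 68779, 66107 and 73352 on the TG arrays. The 10 CD8 T cell markers, among them Cd8a, Cd8b1 and Cd3e, were above background on all 6 arrays, and 0 of them passed the test for a difference in limma. All 10 were slightly lower in TGC3, with a median log2 change of -0.20. Among genes above background on all 6 arrays, 47.5% had a change above 0 and the median was -0.01.

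Intensities are the scanner software's processed signals. Levels are log2 intensities minus the array's 75th percentile, so that a level of 0 is a probe at that percentile. A change is the TGC3 mean level minus the TG mean level, with its standard error (SE) from limma, and a probe or gene is called higher or lower where its p, adjusted over all probes by the Benjamini-Hochberg method, is under 0.05. A gene with several probes is represented by the brightest over the 6 arrays. Levels of different probes are not compared, since each probe binds its target with its own strength.

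Transcripts of 9 of the 10 mitotic kinases were higher in TGC3 cells than in TG cells, and 0 were lower. The background was 7.19% of all genes called higher and 1.82% called lower, and 9.32% and 2.6% among genes whose brightest probe was above background on all 6 arrays, as it was for 9 of the 10 kinases. The median change of the 10 was 1.70, against 0.13 over all genes, and the changes ran from 0.71 for Wee1 to 2.04 for Plk1. For 7 of the 10 the called change was at least 2-fold, which held for 2.45% of all genes. In all 10 the 3 TGC3 levels lay above the 3 TG levels, a separation found in 21% of all genes and 19.2% of all probes. The gene not called was Ttk. Of the 17 probes, 11 were higher and 0 lower, against 6.17% and 1.82% of all probes, while at an unadjusted p under 0.05 in limma 15 were higher and 0 lower, against 16.2% and 9.25% of all probes. The choice of scaling shifts all probes alike: with arrays centred on their median the median change of all probes was -0.07 in place of 0.10, and 1352 probes were higher and 2482 lower in place of 2531 and 747, yet 9 of the 10 kinases were still higher, Plk1 by 1.87 and Wee1 by 0.54.

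**Figure D1:**
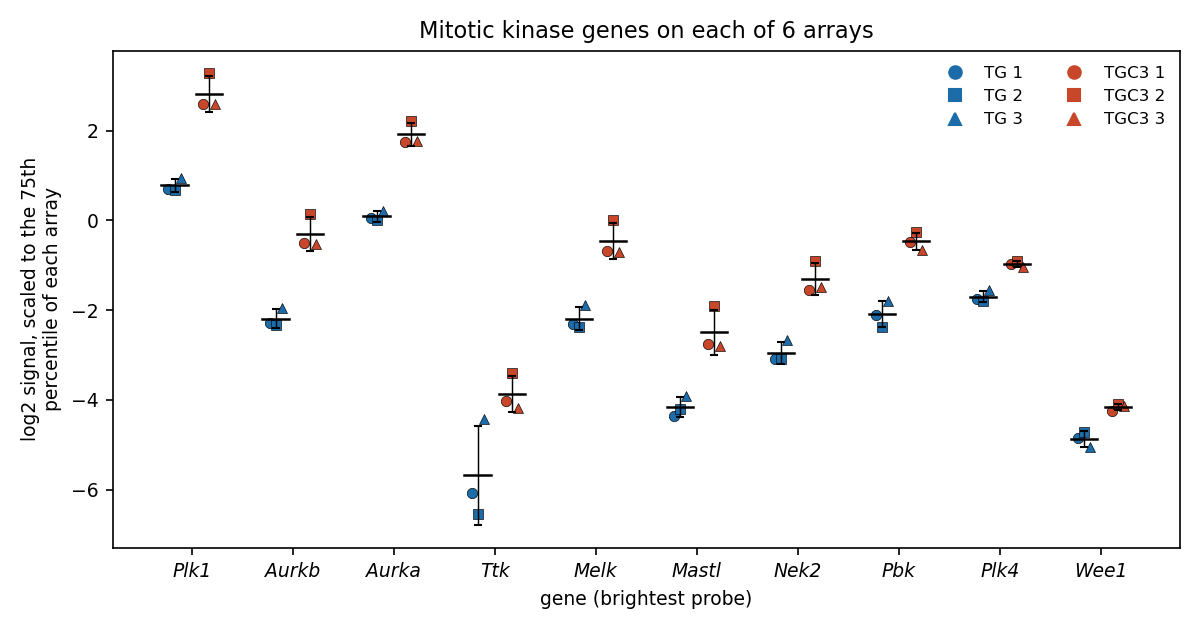
Level of each mitotic kinase on each array (vertical axis, log2 signal scaled to the array's 75th percentile), with TG in blue and TGC3 in red. Symbols mark the replicate, the wide bar is the mean and the narrow bars are 1 SD of 3 arrays. In every gene the red symbols lie above the blue ones, and the red square, TGC3 2, is the highest of the 6. Heights of different genes are not comparable.

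The arrays of a group were not alike. TGC3 2 had the highest of the 6 levels for 10 of the 10 genes, and TG 3 the highest of the TG levels for 9, the exception being Wee1, where it was TG 2. With each gene centred on its own mean, the mean over the 10 genes was 0.63, 1.13 and 0.59 on the TGC3 arrays and -0.90, -0.96 and -0.49 on the TG arrays, in the order of their numbers. The kinases thus moved up and down together between arrays of the same genotype as well as between genotypes. TGC3 2 was also the array with the most signal of neutrophil markers. Their summed level on a linear scale was 1.68 to 8.18 in TGC3, with 8.18 on TGC3 2, and 0.144 to 0.218 in TG, where 1.00 is the signal at an array's 75th percentile. Of the 11 neutrophil markers measured, 2 were higher, S100a8 and S100a9, where 7.19% of all genes were, and 4, Csf3r, Cxcr2, Elane and Mmp8, were above background on no array. Only 1 was above background on all 6 arrays, and its groups overlapped, at 0.1308 to 0.1526 in TGC3 and 0.0822 to 0.1312 in TG. Summed macrophage and monocyte markers were 1.25 to 3.33 in TGC3, again highest on TGC3 2, and 0.838 to 0.997 in TG, with C1qa, C1qc and Cd163 above background on no array and 0 of 12 called. Of 10 B cell markers 3 were called higher and 0 lower, while the summed levels of the 10 overlapped. Measured changes of the 10 ran from -1.20 to 4.14, with 7 above 0, where 61.3% of all genes were. Among the 3 were Cd79a, by 0.68 ± 0.14, and Ms4a1, which was below background on all TG arrays, at least 3.53-fold (limma, adjusted p = 0.0476 and 0.0123). The 4 erythroid markers above background on all arrays summed to 0.332 to 0.446 in TGC3, highest on TGC3 2, and 0.238 to 0.254 in TG. TGC3 2 also had the highest sum of the 6 arrays for dendritic cell (23.8) and plasma cell (1.57) markers, whose groups overlapped. Among the TGC3 arrays it was highest for CD8 T cell (816.4) and NK cell (10.8) markers too. The part of cells other than CD8 T cells in the kinase levels was not tested. Without TGC3 2, 8 of the 10 kinases were still called higher and the changes ran from 0.68 for Wee1 to 1.81 for Plk1.

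The 9 called genes had adjusted p of 0.00777 to 0.0275 in limma, and leaving out 1 array moved many across the threshold of 0.05. Of the 10 genes, 6 were called higher when TGC3 1 was left out, 8 when TGC3 2 was and 4 when TGC3 3 was. Leaving out TG 1 gave 2, TG 2 gave 1 and TG 3 gave 8. By probe the counts were the same, where all 6 arrays gave 11 of 17. Calls fell over the whole array as well. Of all 40996 probes, 2531 were called higher with all 6 arrays. Leaving out TGC3 1, TGC3 2 and TGC3 3 gave 1068, 1617 and 662, and leaving out TG 1, TG 2 and TG 3 gave 587, 334 and 814. The changes themselves kept their direction in each case for all 10 genes. Aurka alone was called without any 1 array (adjusted p = 0.0115 to 0.0419 in limma). When only probes above background on at least 3 of 6 arrays entered the fit, a combination added after the data were seen, at least 9 of the 10 were called whichever array was left out. Ttk, whose TG level was below background on 2 of 3 arrays, was the exception in 5 of these 6 fits. With all 6 arrays, this filter gave 9 of the 10 kinases and 3430 of 25031 probes called higher. With normexp background correction on the spot backgrounds as scanned, 0 of the 10 were called in limma and 2 were higher at an unadjusted p under 0.05. There 0 of all 40996 probes were called higher, and 0.792% of all genes were higher at an unadjusted p under 0.05. With 7 aberrant backgrounds replaced, 9 of the 10 were called, where 2335 of all probes were called higher. Both normexp fits add an offset of 50 units to each signal, which by arithmetic shrinks the log2 changes of dim probes most. With the aberrant backgrounds replaced, Mastl changed by 0.81, Ttk by 0.43 (called) and Wee1 by 0.17 (not called, adjusted p = 0.11 in limma).

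**Figure D2:**
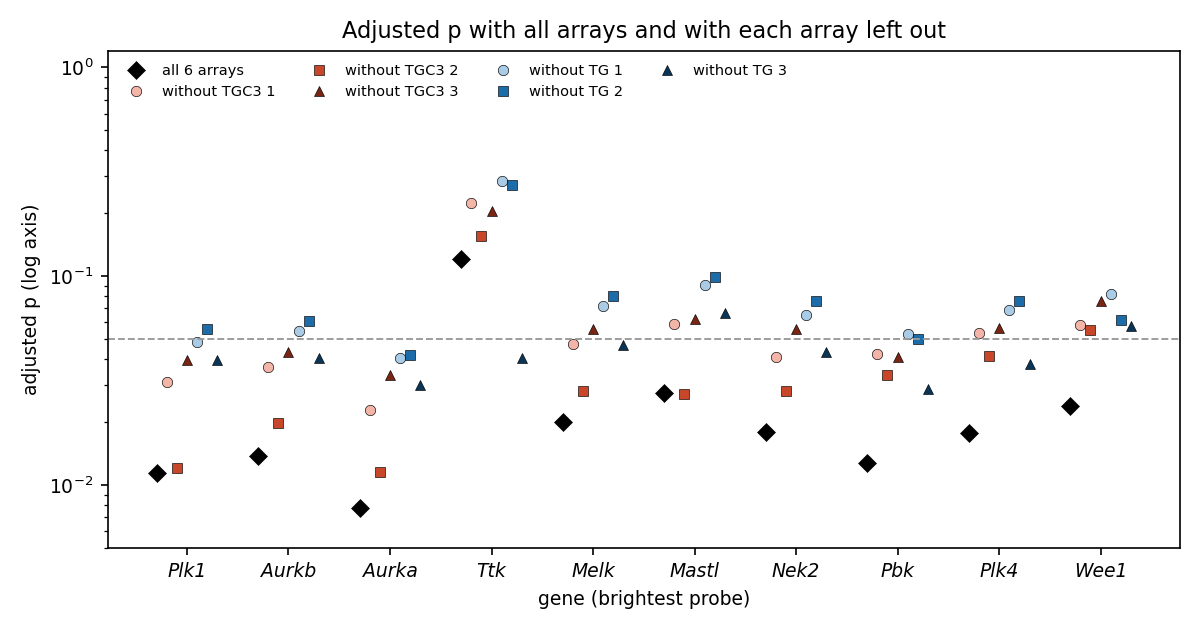
Adjusted p from limma for each mitotic kinase (vertical log axis) with all 6 arrays (black diamond) and with each array left out (coloured symbols). The dashed line is the threshold of 0.05. Aurka stays under the line throughout, from 0.0115 to 0.0419, Wee1 is above it whichever array is left out, and Ttk is under it only without TG 3, where both remaining TG arrays are below background.

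The sequence before a gene's start carries the sites through which cell cycle genes are known to be timed. In many genes of G2 and M phase, a CCAAT box that binds the factor NF-Y lies close before the start, and a cell cycle genes homology region, with the core TTTGAA or TTCGAA, binds the MuvB complex a short way downstream, while genes of the G1 to S transition often carry E2F sites. Since the kinases moved together, their promoters were read from RefSeq (GRCm38.p6, 250 bases before to 50 after the start), which held 7 of the 10. Aurkb, Pbk and Wee1 were not read. For Plk1, Aurka, Nek2, Ttk and Plk4 the 130 bases before the start are printed 5′ to 3′ on the gene's strand, with CCAAT in capitals, or, for Plk4, the reverse complement of the E2F motif TTCCCGC.
Plk1, chr7:122159305-122159434, plus strand: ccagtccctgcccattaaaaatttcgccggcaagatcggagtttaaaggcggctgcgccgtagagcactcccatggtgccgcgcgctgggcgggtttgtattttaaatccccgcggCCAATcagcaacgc
Aurka, chr2:172370571-172370700, minus strand: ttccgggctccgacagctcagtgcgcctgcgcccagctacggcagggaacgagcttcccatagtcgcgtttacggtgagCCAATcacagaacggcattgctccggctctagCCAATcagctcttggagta
Ttk, chr9:83834559-83834688, plus strand: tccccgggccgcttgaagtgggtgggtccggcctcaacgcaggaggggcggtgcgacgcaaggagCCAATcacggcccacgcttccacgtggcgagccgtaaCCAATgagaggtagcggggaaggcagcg
Nek2, chr1:191821343-191821472, plus strand: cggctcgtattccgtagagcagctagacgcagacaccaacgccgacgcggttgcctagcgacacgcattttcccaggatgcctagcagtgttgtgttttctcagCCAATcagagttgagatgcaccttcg
Plk4, chr3:40799821-40799950, plus strand: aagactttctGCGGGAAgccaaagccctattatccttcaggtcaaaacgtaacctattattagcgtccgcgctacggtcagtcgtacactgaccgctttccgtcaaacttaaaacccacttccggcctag

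CCAAT was searched on both strands in the whole window and was present in 5 of the 7 kinase promoters, those of Aurka, Mastl, Nek2, Plk1 and Ttk, and in 37.4% of all 32851 promoters in the table. Counted from the first base before the start as -1, its first base lay at -14 in Plk1, at -51 and -19 in Aurka, at -65 and -28 in Ttk, at -26 and, downstream, 8 in Nek2, and on the opposite strand at -107 in Mastl. TTTGAA was present in Aurka, Plk1 and Ttk and in 17.9% of all promoters, and TTCGAA in 0 of the 7 and 1.56% of all. The 30 bases around it are printed with the match in capitals, which for Ttk is on the opposite strand and so reads TTCAAA.
Aurka, chr2:172370521-172370550, minus strand: aaaaggagaaccTTTGAAttgtaacggctg
Plk1, chr7:122159453-122159482, plus strand: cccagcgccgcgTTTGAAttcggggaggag
Ttk, chr9:83834684-83834713, plus strand: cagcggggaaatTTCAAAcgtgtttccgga
All 3 matches began after the start, at 33 in Aurka, 31 in Plk1 and 8 in Ttk. A window with both CCAAT and a homology core was thus found in 3 of 7 kinases and in 7.52% of all promoters. Of the E2F motifs, TTCCCGC was present in Plk4 alone, with the 4.6% of all promoters that hold it, while TTGGCGC and TTCGCGC were in 0 of the 7 (2.45% and 1.59% of all). None of the 6 motifs overlapped another in these windows. The Melk window held none of them. A match describes the letters only and is no measure of binding.

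Plk1 and Aurka act at the entry into mitosis, where Aurora A, with its cofactor Bora, switches on polo-like kinase 1, which in turn activates Cdk1 and matures the centrosomes. Plk1 was read by a probe to NM_011121 (mm9, chr7:129313220-129313279, plus strand), with 3590, 5945 and 3775 intensity units on the TGC3 arrays, in the order of their numbers, and 918, 922 and 1207 on the TG arrays. The groups did not overlap, and TGC3 2 stood highest. Levels were 2.82 ± 0.40 (SD, n = 3) in TGC3 and 0.78 ± 0.15 (SD, n = 3) in TG. The change of 2.04 ± 0.21 (SE), 4.12-fold with a 95% interval of 2.85 to 5.95, passed the test (limma, adjusted p = 0.0115) and was the largest among the 10 genes' brightest probes. Without TG 2 its adjusted p was 0.0561.

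Aurka (NM_011497, mm9, chr2:172181734-172181793, minus strand) read 2007, 2854 and 2139 units in TGC3 and 582, 575 and 725 in TG. Every TGC3 array was well above every TG array, and the 3 TG arrays were close together. The change was 1.83 ± 0.15, or 3.55-fold (2.73 to 4.62), with the lowest adjusted p of the 10 genes (limma, 0.00777).

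Aurkb encodes Aurora B, the kinase of the chromosomal passenger complex, which corrects wrong attachments of chromosomes to the spindle and acts again as the cell splits. Its probe (NM_011496, mm9, chr11:68865037-68865096, plus strand) read 423, 676 and 431 units in TGC3 and 116, 114 and 162 in TG. TGC3 1 and TGC3 3 were nearly equal, TGC3 2 was higher, and no TG array came near them. Its mean level was -0.30 ± 0.38 with CXCR3 absent and -2.19 ± 0.21 in TG (SD, n = 3), a change of 1.89 ± 0.22 or 3.71-fold (limma, adjusted p = 0.0137). Without TG 1 and without TG 2 it was no longer called (highest adjusted p 0.0612).

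Ttk, known as Mps1, starts the spindle checkpoint by phosphorylating Knl1 at unattached chromosomes. Its only probe (NM_009445) is laid by the files over 2944 bases of mm9, chr9:83758726-83761669, plus strand, longer than its 60 bases, so that it joins separate stretches of the genome. The probe is shown because its level was low and it was the 1 kinase not called.
Ttk probe, 60 bases: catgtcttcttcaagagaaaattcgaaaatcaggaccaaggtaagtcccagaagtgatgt
It read 36.6, 57.6 and 34.4 units in TGC3 and 8.34, 6.17 and 28.9 in TG. All TGC3 arrays were above background, but of the TG arrays only TG 3 was, and its 28.9 units lay near the lower TGC3 values. The measured levels were -3.87 ± 0.41 in TGC3 and -5.68 ± 1.11 in TG (SD, n = 3). With the 2 dim TG arrays set no lower than the dimmest probe above background, the mean signal was at least 2.44-fold higher in TGC3. Such bounds, here and for other probes, are on the measured means and leave the spread between arrays aside. The change of 1.81 ± 0.58 did not pass the test (limma, adjusted p = 0.12). Without TG 3 it did (adjusted p = 0.0404), but both TG arrays then left were below background, so that the size is known only as a signal at least 3.15-fold higher in TGC3.

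Nek2 separates the centrosomes before the spindle forms. Its probe (NM_010892, mm9, chr1:193656343-193656402, plus strand) read 203, 327 and 224 units in TGC3 and 65.9, 67.3 and 98.2 in TG. The lowest TGC3 array was above the highest TG array. The change was 1.64 ± 0.22, 3.11-fold with an interval of 2.14 to 4.53 (limma, adjusted p = 0.018), and it was not called without TGC3 3, TG 1 or TG 2 (highest adjusted p 0.0756).

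Plk4 starts the duplication of the centriole, the core of the centrosome, a step of S phase rather than of mitosis. Its 3 probes lie along 1 gene, and the pair above background on all arrays is shown to let their targets be compared. The stretch of A_52_P668285 covers 140 bases of mm9 for 60 bases of probe, so that it joins separate stretches, while that of A_52_P635976 is unbroken.
Plk4 A_52_P635976, mm9 chr3:40609055-40609114, plus strand: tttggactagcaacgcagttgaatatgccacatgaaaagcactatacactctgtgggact
Plk4 A_52_P668285, mm9 chr3:40615898-40616037, plus strand: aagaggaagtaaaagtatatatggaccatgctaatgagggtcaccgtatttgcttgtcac
The brightest, A_52_P635976 (NM_011495), read 303, 330 and 304 units in TGC3 and 167, 166 and 212 in TG. The TGC3 arrays differed little from one another, TGC3 2 included. The change was 0.73 ± 0.10, or 1.66-fold (1.40 to 1.96; limma, adjusted p = 0.0177). It was not called without TGC3 1, TGC3 3, TG 1 or TG 2 (highest adjusted p 0.0761).

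A_52_P668285 gave 59.2, 73.7 and 57.6 units in TGC3 and 32.7, 32.3 and 47.6 in TG, again without overlap. Its change of 0.71 ± 0.17 was of like size but did not pass (limma, adjusted p = 0.0591). The third Plk4 probe (ENSMUST00000168363, mm9, chr3:40612020-40612079) was above background on 0 of 6 arrays, and its groups overlapped.

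Mastl, also called Greatwall, keeps the phosphatase PP2A switched off during mitosis. It had 5 probes on chromosome 2 of mm9, all on the minus strand, and only 2 of these cleared background everywhere. The brightest, A_51_P302139 (NM_025979), is shown with A_51_P235775 (NM_025979), whose 60 bases are laid over 649 bases of the genome.
Mastl A_51_P302139, mm9 chr2:22973965-22974024, minus strand: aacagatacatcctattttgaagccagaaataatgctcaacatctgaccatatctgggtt
Mastl A_51_P235775, mm9 chr2:23000935-23001583, minus strand: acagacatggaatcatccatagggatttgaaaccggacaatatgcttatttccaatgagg
A_51_P302139 read 88.1, 163 and 89.3 units in TGC3 and 27.4, 31.1 and 41.5 in TG. TGC3 2 was far above the other TGC3 arrays, which were still above all of TG. The change was 1.67 ± 0.28, or 3.17-fold (1.98 to 5.10; limma, adjusted p = 0.0275). It was called without TGC3 2 (1.38, adjusted p = 0.0272) but not when any of the other 5 arrays was left out (highest adjusted p 0.0988).

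The other Mastl probe above background throughout, A_52_P406819 (ENSMUST00000028119, mm9, chr2:22971410-22971469), read 50.4, 65.6 and 49.6 units in TGC3 and 34.2, 28.2 and 34.8 in TG. Its groups did not overlap either, and its change of 0.70 ± 0.15 (limma, adjusted p = 0.0471) was smaller than that of the brightest probe, with 95% intervals of 0.34 to 1.07 and 0.98 to 2.35. The difference between the probes was not tested. A_51_P235775 read 12.5, 58.3 and 19.9 units in TGC3 and 2.58, 3.54 and 7.97 in TG. It was above background on 2 TGC3 arrays and 0 TG arrays, which gives a signal at least 1.81-fold higher in TGC3, and did not pass (adjusted p = 0.0814). Of the remaining Mastl probes, each above background on 1 TGC3 array and 0 TG arrays, A_52_P996341 was called (adjusted p = 0.0489) and A_52_P528576 was not (adjusted p = 0.0747).

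Wee1 is a brake on the entry into mitosis, a kinase that holds Cdk1 inactive before it. Its probe (NM_009516, mm9, chr7:117283161-117283220, plus strand) was dim but above background on all arrays, at 31.6, 36.1 and 35.3 units in TGC3 and 19.6, 21.9 and 18.8 in TG. The arrays of each group were close together, and unlike the other genes TG 3 was the lowest TG array. The change of 0.71 ± 0.11, or 1.64-fold (1.36 to 1.98), passed the test (limma, adjusted p = 0.024) with all arrays but not with any 1 left out (adjusted p = 0.0552 to 0.0821).

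Melk and Pbk are kinases of dividing cells whose tasks in mitosis are less settled. The brighter Melk probe (NM_010790, mm9, chr4:44376833-44376892, plus strand) read 369, 615 and 383 units in TGC3 and 115, 111 and 168 in TG. The groups were far apart, with TGC3 2 again at the top. The change was 1.72 ± 0.24, or 3.30-fold (2.18 to 5.01; limma, adjusted p = 0.02), and was not called without TGC3 3, TG 1 or TG 2 (highest adjusted p 0.0801). The dimmer Melk probe (AK048803, mm9, chr4:44363175-44363234) read 3.66, 8.26 and 3.28 units in TGC3 and 62.6, 2.60 and 2.94 in TG, and TG 1 was its only array above background. Its change of -0.82 ± 1.33 (limma, adjusted p = 0.692) became 0.71 without TG 1.

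Pbk (NM_023209, mm9, chr14:66436224-66436283, plus strand) read 429, 509 and 393 units in TGC3 and 130, 111 and 180 in TG. All TGC3 arrays were above all TG arrays. Its mean level was -0.47 ± 0.20 in TGC3 and -2.10 ± 0.29 in TG (SD, n = 3), a change of 1.62 ± 0.18 or 3.08-fold (limma, adjusted p = 0.0127). Without TG 1 and without TG 2 it was not called (adjusted p = 0.053 and 0.0501 in limma).

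**Figure D3:**
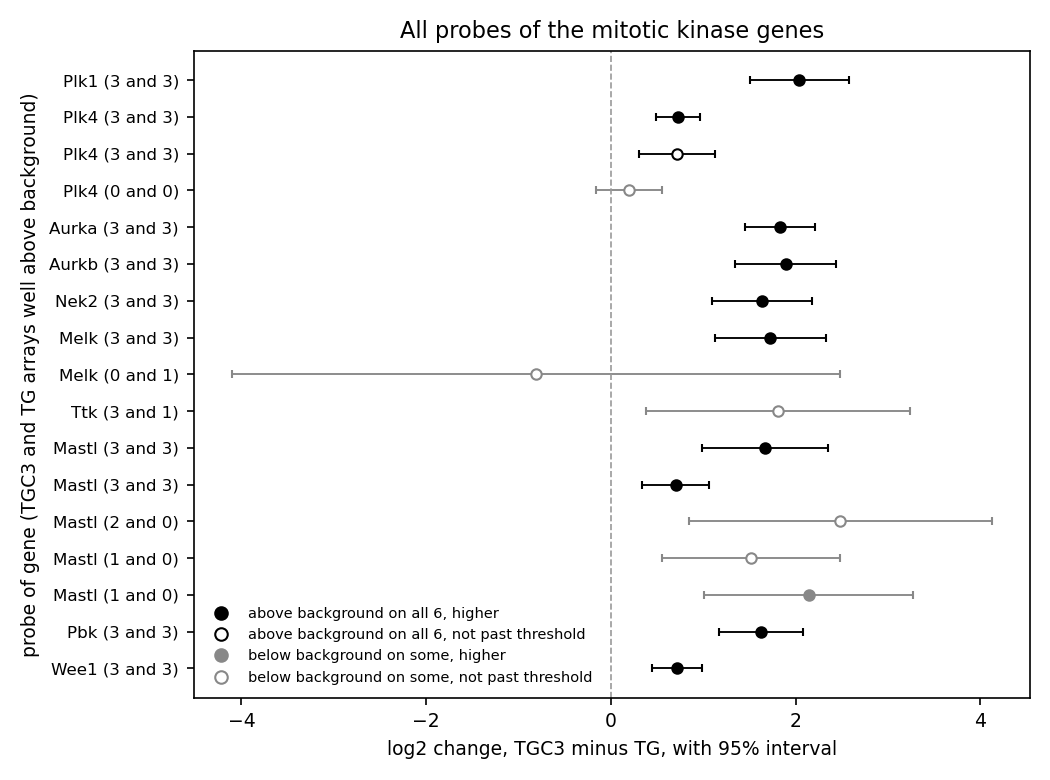
Change of each of the 17 probes (horizontal axis, log2 TGC3 minus TG) with its 95% interval from limma. Numbers after each gene are the TGC3 and TG arrays on which the probe was above background, black marks probes above background on all 6 arrays, and filled symbols passed the test. Of the 11 black probes, 10 are filled, and the dimmer Melk probe is the only one left of 0.

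The smallest changes of the brightest probes were those of Plk4 and Wee1, which changed by 0.73 and 0.71, with 95% intervals of 0.49 to 0.97 and 0.44 to 0.99. The other 7 called genes changed by 1.62 to 2.04, and the lowest lower bound of their intervals was 0.98, for Mastl. This order depends on the probe, since the dimmer Mastl probe above background throughout changed by 0.70. It also depends on the background correction and its offset. Normexp with the aberrant backgrounds replaced gave 0.60 for Plk4, 0.81 for Mastl, 1.11 for Nek2 and 1.24 for Pbk. Differences between genes were not tested. The genes whose levels followed the mean of the 10 kinases most closely over the 6 arrays, of 15062 other genes above background throughout, were Nusap1 (Pearson r = 0.99942), Sgol1 (0.99919), Spc24 (0.99915), Rrm2 (0.99890) and Prc1 (0.99878). These values describe 6 arrays in 2 groups and carry no test, and 131 of the genes had r above 0.99.

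The kinases act with other proteins, and 148 further genes in 13 lists were read from the same fit, each by its brightest probe, and a few stand in more than 1 list. Of these genes 57 were higher and 0 lower in limma, where 7.19% of all genes were higher. At an unadjusted p under 0.05, 75 were higher and 7 lower, or 50.7% and 4.73%, against 18% and 9% of all genes. With arrays centred on their median, 48 were higher and 6 lower. Leaving out TGC3 1 gave 28 higher, TGC3 2 gave 54 and TGC3 3 gave 15. Leaving out TG 1 gave 6, TG 2 gave 2 and TG 3 gave 26. The lists and the 10 kinases were chosen with earlier results of these data known, so that their direction is no independent support for one another.

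Close relatives of the kinases were not called in the main fit, but this depended on the settings. Of 3 other polo-like kinases (median change 0.35), 0 were called, and at an unadjusted p under 0.05 in limma 1 was higher. Plk3, a stress-responsive relative, read 3443, 3392 and 3568 units in TGC3 and 2344, 2716 and 2903 in TG, which gave 0.33 ± 0.08 and missed the threshold (adjusted p = 0.0713). The lowest adjusted p of this list in limma was 0.0261 under quantile normalization and 0.0156 under normexp with the aberrant backgrounds replaced. With only probes above background on all 6 arrays it was 0.0209. It was 0.374 with arrays centred on their median and 0.0638 with array weights. Of 10 other Aurora and NEK kinases (median change -0.03), most of which serve cilia or microtubules outside mitosis, 0 were called, with 1 higher and 1 lower at an unadjusted p under 0.05, where 18% and 9% of all genes were. For these the lowest adjusted p in limma was 0.0483 under quantile normalization and 0.0475 with the deposited values. In both settings 0 genes of this list were higher and 1 was lower at an unadjusted p under 0.05. The gene past the threshold there was thus lower in TGC3. The lowest adjusted p was 0.0698 under cyclic loess and 0.121 with array weights.

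Other kinases of mitosis were called in 4 of 10 cases (median 0.35), all higher. Cdk1 read 597, 859 and 641 units in TGC3 and 171, 153 and 252 in TG, and rose by 1.82 ± 0.21 (limma, adjusted p = 0.0133). Bub1b, a checkpoint protein, rose by 1.33 ± 0.24 and Cit, which acts when the cell splits, by 1.29 ± 0.26 (adjusted p = 0.0328 and 0.0417). Bub1, the checkpoint kinase at the kinetochore, rose by 0.47 ± 0.08 (adjusted p = 0.0269). Without TG 1 or TG 2 this list had 0 genes called.

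Aurora kinase partners were higher in 8 of 11 cases and lower in 0, with a median change of 1.22. Hmmr, a spindle protein that works with Tpx2, rose by 1.98 ± 0.24, Tpx2, the activator of Aurora A, by 1.61 ± 0.24 and Sgol1, the protector of centromere cohesion, by 1.56 ± 0.20 (limma, adjusted p = 0.015, 0.0221 and 0.0168). Birc5, or survivin, the passenger subunit that brings Aurora B to centromeres, read 12027, 21845 and 12976 units in TGC3 and 5033, 4910 and 6368 in TG, a rise of 1.42 ± 0.24 (adjusted p = 0.029). Docking partners of polo-like kinase 1 were higher in 4 of 8 cases (median 0.69), led by Prc1, which bundles the central spindle, at 1.34 ± 0.18, Ect2, which starts the contractile ring, at 1.19 ± 0.17, and Fbxo5, an inhibitor of the anaphase-promoting complex, at 0.92 ± 0.18 (adjusted p = 0.0176, 0.0211 and 0.0417). Leaving out TGC3 2 left the Aurora list with 8 genes called, TG 3 with 3, TGC3 1 with 2, TGC3 3 with 1 and TG 1 or TG 2 with 0, and the docking list with 2, 2, 1, 1 and 0.

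Of the partners of Ttk in the spindle checkpoint and at the kinetochore, 7 of 12 were higher (median 0.95). The largest changes were those of Nuf2, Spc25 and Spc24, subunits of the complex that grips microtubules, at 1.57 ± 0.23, 1.55 ± 0.18 and 1.51 ± 0.21 (limma, adjusted p = 0.0212, 0.0134 and 0.0198). Of the switch that Wee1 and Cdk1 form, 6 of 10 genes were higher (median 0.98). Ccna2, a cyclin partner of Cdk1, rose by 1.82 ± 0.24, Cdc25c, the phosphatase that undoes the work of Wee1, by 1.76 ± 0.26, and Ccnb1, the mitotic cyclin, by 1.42 ± 0.21 (adjusted p = 0.0177, 0.022 and 0.0215). Both Wee1 and Cdc25c, which opposes it, were thus among the higher transcripts. Without 1 array the checkpoint list had 0 to 6 and the switch list 1 to 7 genes called, lowest in both without TG 1 or TG 2.

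Partners of Plk4 and Mastl were mostly not called. Of 8 centriole duplication partners of Plk4 (median 0.07), Stil, which binds and activates Plk4, was the only one called, at 153, 213 and 173 units in TGC3 and 43.8, 52.8 and 64.9 in TG, a rise of 1.69 ± 0.16 (limma, adjusted p = 0.0103) that was not called without TG 2. Of the 10 genes of the Greatwall pathway downstream of Mastl (median -0.05), 0 were called, with 0 higher and 1 lower at an unadjusted p under 0.05 in limma. This depended on the settings, as the lowest adjusted p of the list in limma was 0.0335 under quantile normalization. It was 0.0494 with arrays centred on their median and 0.0515 with array weights. Ensa and Arpp19, the small proteins that Mastl phosphorylates, changed by -0.01 ± 0.09 and 0.15 ± 0.07 (adjusted p = 0.962 and 0.279). These pathways are known to be run by phosphorylation, which arrays do not measure.

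Of the 16 genes of the destruction machinery that removes mitotic kinases at the end of division, 3 were higher (median 0.03). Ube2c, the conjugating enzyme of the anaphase-promoting complex, rose by 1.93 ± 0.24, Cdc20, its mitotic activator, by 1.19 ± 0.18 and Fbxw7, which belongs to another ubiquitin ligase, by 0.49 ± 0.07 (limma, adjusted p = 0.0159, 0.0241 and 0.022). Of 13 regulators of late cell cycle transcription (median 0.21), 3 were higher. Foxm1, a transcription factor of G2 and M phase genes, rose by 1.40 ± 0.18, Mybl2, or B-MYB, by 1.07 ± 0.17 and E2f4, which is known chiefly as a repressor, by 0.63 ± 0.08 (adjusted p = 0.0173, 0.0267 and 0.0142). Both lists had 0 genes called without TG 1 or TG 2, and the first also without TG 3.

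Kinases of G1, S phase and the checkpoints were called in 1 of 13 cases (median 0.03). That gene was Cdk2, at 52.4, 53.5 and 54.3 units in TGC3 and 19.3, 17.6 and 29.6 in TG, a rise of 1.25 ± 0.17 (limma, adjusted p = 0.0193), and the list had 2 genes called when TG 3 was left out and 0 when TGC3 1, TGC3 3 or either other TG array was. Other late cell cycle genes were higher in 24 of 30 cases (median 1.24). Cenpf, Gtse1 and Nusap1 led them at 2.14 ± 0.23, 2.12 ± 0.16 and 2.12 ± 0.25 (adjusted p = 0.0118, 0.00582 and 0.0146). Mki67, the common marker of dividing cells, read 9847, 15711 and 10362 units in TGC3 and 4853, 4714 and 6726 in TG, a rise of 1.07 ± 0.21 (adjusted p = 0.0423). The late list had 24 genes called without TGC3 2, 12 without TGC3 1, 10 without TG 3, 7 without TGC3 3, 4 without TG 1 and 1 without TG 2.

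**Figure D4:**
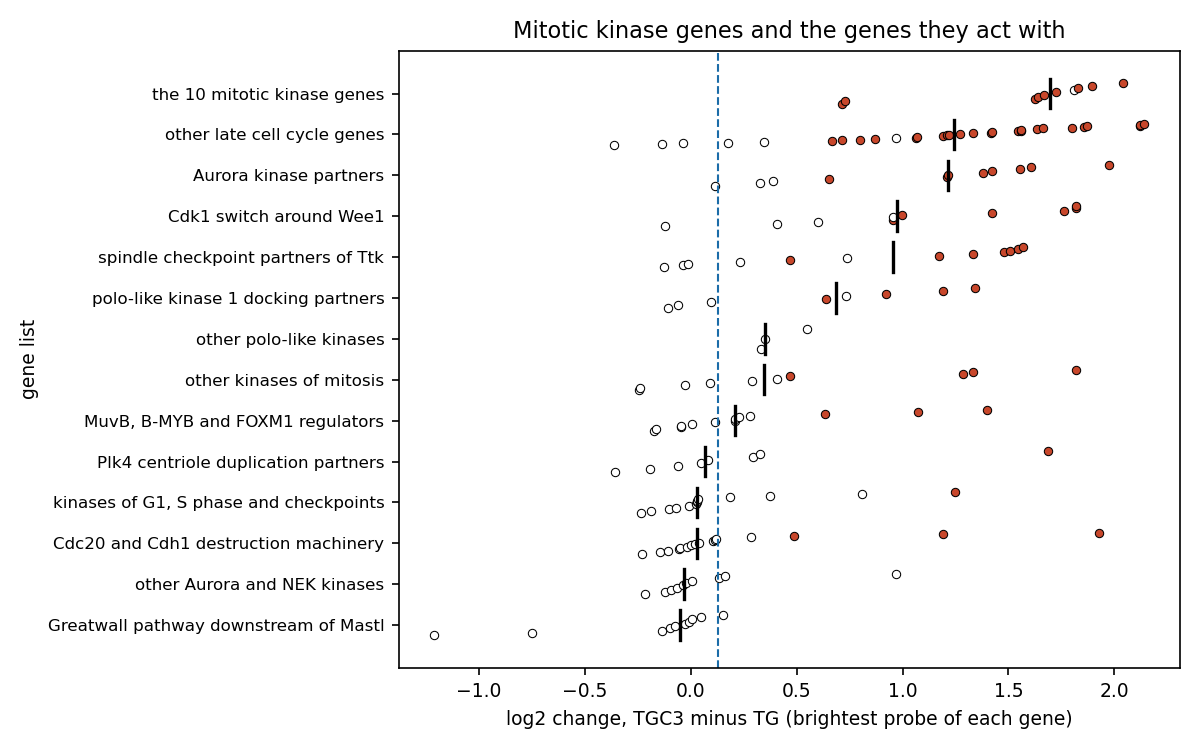
Change of every gene (horizontal axis, log2 TGC3 minus TG) in the 10 mitotic kinases and in 13 lists of genes they act with, with filled symbols for genes past the test, a black bar at each list's median and a dashed line at the median of all genes, 0.13. Medians run from 1.70 for the 10 kinases and 1.24 for other late cell cycle genes to -0.05 for the Greatwall pathway, and all filled symbols lie to the right of 0.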

How the data were processed

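Expression was measured on 1-colour (Cy3) Agilent arrays of 45018 spots, 3 for TGC3 and 3 for TG, taken from the genotype label. The authors' scanner software was Feature Extraction, version 10.7.3.1 per the file headers and 10.7.1.1 per the submitters' processing notes. Its processed signal, per the file headers, is an intensity from which background was subtracted array by array, with no normalization between arrays. The deposited matrix is on a log2 scale and is used as an alternative.

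Spots of a probe were averaged on the log2 scale, and 178 of 41174 probes with a spot the software marked as an outlier were left out. Each array was scaled by its 75th percentile. TGC3 was compared with TG by limma 3.58.1 (lmFit, eBayes, two-sided) in R 4.3.3 with data.table (1.17.8) and statmod 1.5.0, over all 40996 probes, with no filter on dim probes and with Benjamini-Hochberg adjustment over all of them. The procedure was run on simulated data with planted changes and independent noise for each probe. That simulation held no slide effect and no genes that move together, so it does not bear on the calls made here. Positions of probes are those of mm9 in the files, no exon annotation of that build was used here, and gene names are those of the array. With 2 groups there are no wild-type samples. Promoters were searched with Python 3.11.15 and pandas 2.3.3, and figures drawn with matplotlib 3.10.9 and numpy 2.4.6.

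The members, the lists of related genes and cell markers and the tests were chosen with earlier results of these data known. Genes named from a list are up to 3 with the largest called change, with Cdk1, Ccnb1, Bub1, Tpx2, Birc5, Foxm1 and Mki67 whatever their result and the 5 genes closest to the kinases over the arrays. Plk3, Ensa and Arpp19 were named after their values were seen. Summed markers of the other cell types overlapped between the groups for B cells (6.14 to 6.62 in TGC3, 6.25 to 7.58 in TG), dendritic cells (14.4 to 23.8, 18.4 to 20.9), hepatocytes (0.211 to 0.247, 0.205 to 0.312), plasma cells (0.915 to 1.57, 1.13 to 1.20) and CD4 and regulatory T cells (1.17 to 1.55, 1.11 to 1.20). They were lower in TGC3 for CD8 T cells (750.3 to 816.4, 834.1 to 928.7) and NK cells (8.60 to 10.8, 12.2 to 13.3) and higher for liver endothelial cells (0.809 to 0.890, 0.674 to 0.764). Markers called higher were 3 of 10 for B cells, 1 of 5 for plasma cells (Igj), 1 of 9 for dendritic cells (Zbtb46) and 2 of 7 for liver endothelial cells (Stab2 and Clec4g), and 0 for the other lists of this paragraph. The sum over all erythroid markers is not reported here. Alternatives were quantile, median and cyclic loess normalization, the deposited values, normexp with an offset of 50, filters on dim probes, trend and robust settings, array weights, the mean of a gene's probes, a replicate block, and each array left out in turn.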

Additional observations from a re-analysis of the deposited data

How the results depend on the processing

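The count of 9 kinases called higher was also 9 under quantile normalization, median centring, cyclic loess, the deposited values, both filters on dim probes, trend and robust settings and array weights. The median change of all probes moved by -0.11 under quantile normalization and cyclic loess and by -0.18 under median centring. With the mean of a gene's probes there were 8, Melk changing by 0.45 (limma, adjusted p = 0.665). Normexp on the spot backgrounds as scanned called 0 kinases and 0 of 17 probes (2 each at an unadjusted p under 0.05 in limma), 0 of 148 related genes and 0 probes higher and 1 lower in all. There the changes of Ttk (-0.41), Wee1 (-0.73), the Mastl probes A_51_P235775 (-0.56), A_52_P406819 (-0.56), A_52_P528576 (-0.87) and A_52_P996341 (-0.75) and the Plk4 probes A_52_P59654 (-1.14) and A_52_P668285 (-0.51) turned negative. With 7 aberrant spot backgrounds replaced by the array median, normexp called 9 kinases, Ttk (0.43, adjusted p = 0.0471) in place of Wee1 (0.17, adjusted p = 0.11). The Plk4 probe A_52_P59654, below background on all arrays, was at -0.0017 under quantile normalization and the deposited values, -0.0041 under cyclic loess and -0.11 under the repaired normexp.

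Deviations of same-numbered arrays correlated at 0.02, -0.02 and -0.14, and those of differently numbered arrays at -0.11 to 0.15. With 3 arrays per group these values cannot settle whether the replicate numbers pair the samples. With the replicate block 0 kinases, 0 member probes and 0 related genes were called, with 0 probes higher and 1 lower in all, while 10 of 10 kinases were higher at an unadjusted p under 0.05 in limma, as were 16.1% of all genes, and their adjusted p was 0.0803 to 0.236.

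The count of all probes called lower (747) varied with the settings, with 1696 under quantile normalization, 2482 under median centring (1352 higher), 1374 under cyclic loess, 1691 with the deposited values, 2381 under the repaired normexp, 2068 and 2180 with filters on 3 and 6 arrays, 1984 with trend and robust settings and 1419 with array weights. Related genes called lower were then 4, 6, 1, 4, 6, 5, 6, 5 and 2 in the same order. Leaving out 1 array gave 1 to 8 kinases and 1 to 8 member probes, 2 to 54 related genes higher, and 334 to 1617 probes higher and 45 to 557 lower. The dimmer Melk probe, at -0.82, ran from -1.59 without TG 2 to 0.71 without TG 1. The causes were not tested. Signal over background limits Ttk and 5 further member probes that were below it on some arrays.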
